A study of Mus musculus with 4 samples.

Results

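The cells described here are the 5% of mammary basal cells with the most transcripts of Edn2, Adm, Crispld2 and Ntf3, and they number 352 of 7028 basal cells and of 18223 cells in all. Each cell needed at least 1000 UMIs (unique molecular identifiers, each standing for 1 captured transcript). A cell was called basal when its summed UMIs of Krt5, Krt14, Krt17 and Acta2 were at least 5 and more than 3 times those of Krt8, Krt18 and Krt19. Members were chosen by their score, the summed UMIs of the 4 genes per 10000 UMIs, and the score limit was set over all 4 libraries together. The levels of the 4 genes in members are therefore a description of the choice. The lowest member scored 72.73 and the highest cell outside scored 72.67, the next being 72.99 inside and 72.65 outside. The 71 members within 10% above the limit faced 70 cells within 10% below it, so the limit falls on a continuous range and marks no separate cell type. The median score was 93.3 in members and 8.91 in the other basal cells, and 24.1% of the other basal cells held no UMI of the 4 genes.

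Adm encodes adrenomedullin, a secreted peptide that widens blood vessels and acts through the receptor Calcrl with a Ramp protein. Edn2 encodes endothelin 2, a secreted peptide that contracts smooth muscle, Crispld2 encodes a secreted protein that binds lipopolysaccharide, and Ntf3 encodes the neurotrophin NT-3, a ligand of Ntrk3. Mammary basal cells are largely contractile myoepithelial cells that squeeze milk from the alveoli under oxytocin. Adm and Edn2 are both known targets of the hypoxia-inducible factors, which bind DNA at the core ACGTG or GCGTG when oxygen is low and also drive glucose uptake and glycolysis.

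The libraries came from mammary epithelial cells of FVB mice sampled at 9 weeks of age, 1 library per mouse. All 4 mice were homozygous for a floxed Tfap2c gene, which encodes the transcription factor AP-2γ, and carried Krt5-CreERT2, a Cre recombinase under the Krt5 promoter that 4OHT (4-hydroxytamoxifen) activates. Injections of corn oil, the vehicle (2 mice), or of 4OHT (2 mice) began at 4 weeks, and every group therefore carries the same alleles, with no mouse lacking Cre or the floxed gene among them. By its title, the series concerns AP-2γ and the upkeep of mammary stem cells. Values for the 4 libraries are given below in the order corn oil replicate 1, corn oil replicate 2, 4OHT replicate 1 and 4OHT replicate 2. Their total UMIs ran from 17351950 to 22017878. The median UMIs of members were 4972, 2858, 4142 and 2639, against 5160, 3178, 3837 and 2842 in the other basal cells. Among all barcodes, 155 occurred in more than 1 library, and no member shared its barcode with a member of another library.

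The score of the members was carried mainly by Adm, which gave 86.6% of their marker UMIs (82.5% to 92.2% by library). Levels are given as CPM, the UMIs of a gene per 1000000 UMIs summed over the cells of a set in a library. Adm stood at 10030, 9409, 9004 and 9035 CPM in members and at 1113, 1169, 1268 and 1653 CPM in the other basal cells. Edn2 stood at 703, 300.2, 925 and 1241 CPM in members, and at 19.8, 13.4, 31.4 and 61.6 CPM in the others. Both genes were far higher in members in every library, as the choice requires. For Crispld2 the members held 119.6, 512, 463 and 618 CPM and the others 97.1, 174, 71.2 and 253 CPM. Corn oil replicate 1 thus showed nearly no excess of Crispld2, and the 2 sets of libraries overlapped. Ntf3 reached 29.9, 113, 14.2 and 63.6 CPM in members and 10.4, 31.4, 3.97 and 36.4 CPM in the others, and its members' values rest on 68 UMIs.

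Few members held all 4 transcripts. Every member had an Adm UMI, 44.6% had Crispld2, 23.3% had Edn2 and 11.9% had Ntf3. Of the 352 members, 137 had 1 of the 4 transcripts, 156 had 2, 52 had 3 and 7 had all 4. The label Edn2 Adm Crispld2 basal cells therefore holds for the sum over cells and not for the typical member, which was an Adm-high cell. The top 5% of basal cells by Adm alone shared 301 cells with the members, 85.5% of either set. Edn2 was concentrated in few cells. The 34 members with at least 10 Edn2 UMIs held 85.8% of the members' Edn2 UMIs, and only 12 of those 34 belonged to the top 5% by Adm alone. By library these 34 cells numbered 6, 2, 3 and 23, and 13 of 6676 other basal cells had as many Edn2 UMIs. In the 34 cells, summed over libraries, Adm stood at 6086 CPM and Acta2 at 9236 CPM, against 10589 and 4902 CPM in the 270 members whose Adm alone passed the limit. These 2 groups were chosen by Edn2 and by Adm, and a cell could belong to both. Their Adm levels therefore describe the choice. Acta2 is part of the basal rule, and the difference between the 2 groups was not tested. Slc2a1, which encodes the glucose transporter GLUT1, stood at 5493 and 5611 CPM in the same 2 groups of members.

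The start regions of the 4 genes are shown because the core bound by hypoxia-inducible factors occurs in all of them. Each is the 300-base window of RefSeq on GRCm38.p6, from 250 bases before to 50 after the annotated start, read 5′ to 3′ on the gene's strand. Capitals mark each ACGTG or GCGTG on either strand, so that the reverse complements CACGT and CACGC are marked too. Adm is at chr7:110627407-110627706 on the plus strand, Edn2 at chr4:120160956-120161255 on the plus strand, Crispld2 at chr8:119992188-119992487 on the plus strand, and the first of 2 windows of Ntf3 at chr6:126166695-126166994 on the minus strand.
Adm: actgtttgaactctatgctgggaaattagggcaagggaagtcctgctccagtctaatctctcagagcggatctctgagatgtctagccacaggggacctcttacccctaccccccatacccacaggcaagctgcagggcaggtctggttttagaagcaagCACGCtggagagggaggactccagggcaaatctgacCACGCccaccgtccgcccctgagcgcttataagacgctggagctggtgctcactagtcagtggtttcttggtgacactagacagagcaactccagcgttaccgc
Edn2: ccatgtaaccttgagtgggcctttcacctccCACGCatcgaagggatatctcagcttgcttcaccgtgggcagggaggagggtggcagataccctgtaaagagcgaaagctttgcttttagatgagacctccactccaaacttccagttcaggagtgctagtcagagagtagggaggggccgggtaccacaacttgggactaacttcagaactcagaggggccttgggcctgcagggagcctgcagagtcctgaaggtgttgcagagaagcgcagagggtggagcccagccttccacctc
Crispld2: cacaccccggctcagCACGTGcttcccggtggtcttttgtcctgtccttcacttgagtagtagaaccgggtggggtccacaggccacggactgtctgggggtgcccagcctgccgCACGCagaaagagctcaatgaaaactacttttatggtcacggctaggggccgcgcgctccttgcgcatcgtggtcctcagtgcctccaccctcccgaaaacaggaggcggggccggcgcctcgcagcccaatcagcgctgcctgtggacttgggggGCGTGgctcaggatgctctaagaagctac
Ntf3: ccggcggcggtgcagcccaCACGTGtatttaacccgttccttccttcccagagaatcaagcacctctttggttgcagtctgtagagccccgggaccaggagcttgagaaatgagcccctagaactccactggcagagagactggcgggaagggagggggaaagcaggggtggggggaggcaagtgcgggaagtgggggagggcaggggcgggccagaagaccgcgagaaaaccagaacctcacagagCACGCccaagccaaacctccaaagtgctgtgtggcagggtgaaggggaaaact
Counted from the start, matches began at −90 and −54 in Adm and at −219 in Edn2. In Crispld2 they began at −235, −234, −135 and 21, and in Ntf3 at −231, −230 and −3, the pairs 1 base apart being the palindrome CACGTG read on either strand. The second Ntf3 window held none. The core is common: 43.8% of 32851 windows of this length hold it. Among genes with a window, 71.4% of 7010 tested genes held it in at least 1 window, as did 74.3% of 362 genes higher in members and 67.4% of 484 genes lower in members. A match is a string of letters and no evidence of binding.

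Whether the 4 markers go together was asked by leaving out each in turn and taking the top 5% by the other 3. No gene thus chose the cells in which it was measured. The 4 markers were themselves chosen with earlier results of these data known. The p-values below are therefore no independent support that the markers go together. The left-out marker was then compared with the other basal cells by the edgeR quasi-likelihood test with library as a block. Adm, the gene with the most counts, was higher in all 4 libraries when left out, at 2436, 2984, 2505 and 3590 CPM against 1389, 1367, 1430 and 2133 CPM (log2 difference 0.99, SE 0.17, adjusted p = 5.96e-07). The 2 sets of libraries did not overlap. Edn2 was higher in 3 of 4 libraries when left out, at 155, 259, 22.9 and 546 CPM against 38.8, 13.5, 53.2 and 127 CPM. In 4OHT replicate 1 it was lower, on 3 UMIs. The test gave a log2 difference of 2.39 (SE 0.17, adjusted p = 3.03e-41), and DESeq2 did not call it (log2 2.11, SE 0.90, adjusted p = 0.118). Nor did edgeR without the library block (log2 2.34, SE 0.67, adjusted p = 0.0912). The SE of 0.17 thus does not describe how far the libraries differed in Edn2. Crispld2 was higher in 4 of 4 libraries by 0.70 (SE 0.16, adjusted p = 3.44e-04) and Ntf3 in 4 of 4 by 1.18 (SE 0.30, adjusted p = 0.0015). Crispld2 stood at 113, 263, 188 and 390 CPM against 97.3, 182, 77.9 and 274 CPM. Left-out Ntf3 stood at 29.9, 90.3, 13.9 and 50.4 CPM against 10.4, 32.2, 3.97 and 37.6 CPM. Its values in the chosen cells rest on 56 UMIs, with 2 in 4OHT replicate 1. For both genes the 2 sets of libraries overlapped. Without corn oil replicate 2 the Ntf3 difference was 0.94 with adjusted p = 0.074. Of all genes tested, 5.21%, 1.54%, 5.1% and 5.26% were called higher in the sets that left out Edn2, Adm, Crispld2 and Ntf3. The set chosen without Adm shared 98 cells with the members, 27.8% of either set.

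**Figure D1:**
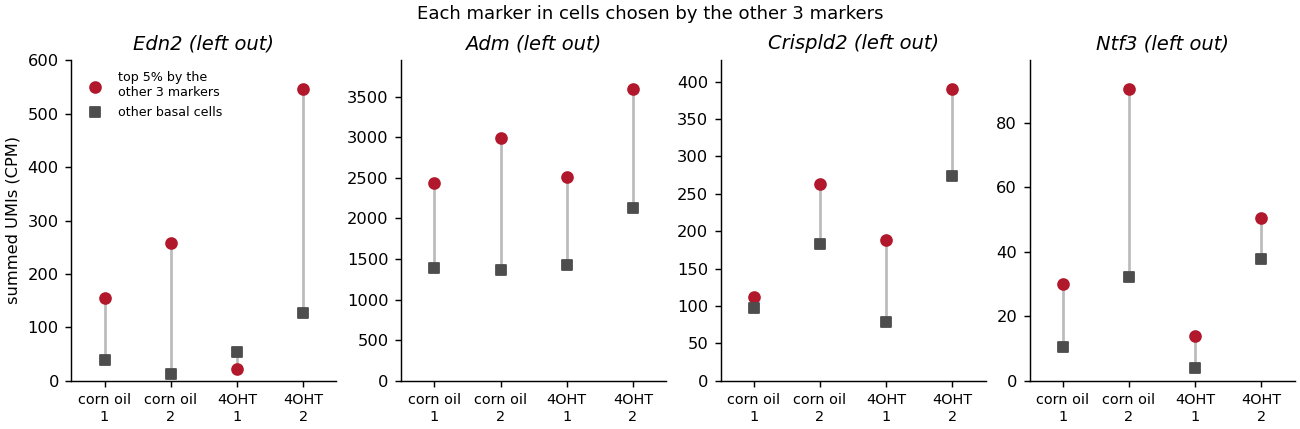
Each panel plots 1 marker as CPM (from summed UMI counts) in the 4 libraries, in the top 5% of basal cells by the other 3 markers (circles) and in the remaining basal cells (squares), with lines joining the 2 values of a library. Adm, Crispld2 and Ntf3 were higher in the chosen cells in 4 of 4 libraries and Edn2 in 3 of 4, with 22.9 against 53.2 CPM in 4OHT replicate 1. The 4 markers were chosen with earlier results of these data known.

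Outside the 11 genes of the rule, 17 of 22 hypoxia response genes and 12 of 13 glycolysis genes were higher in members than in the other basal cells, and 10 of 10 interferon response genes were lower. These 39 genes are a small portion of all the genes called. Of 8980 genes tested with library as a block, 481 were higher in members (5.36%) and 601 were lower (6.69%) at an adjusted p under 0.05. The libraries of members and others did not overlap for 168 of the 481 and for 474 of the 601. Lack of overlap is thus common among called genes. The median log2 difference of all tested genes was −0.17. Leaving out corn oil replicate 1 or 4OHT replicate 2 brought the 1082 calls to 606 and 719, and DESeq2 called 581, of which 346 were higher and 235 lower. The difference concerns cells ranked by a score, and the 4 genes of that score were chosen with earlier results of these data known, so a call says that a gene goes with the score among basal cells.

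Of 22 hypoxia response genes, 17 were higher in members, 0 were lower and 5 were not called, with a median log2 difference of 0.78. The 17 were Slc2a1, Hilpda, Ddit4, Ndrg1, Vegfa, Bhlhe40, Hk2, Ero1l, Pdk1, Egln1, Higd1a, Bnip3, Bnip3l, Car9, Mxi1, P4ha1 and Egln3. Slc2a1 stood at 7627, 5566, 4684 and 4274 CPM in members and at 2895, 2257, 1940 and 1981 CPM in the other basal cells (log2 1.39, SE 0.11, adjusted p = 1.41e-35). Every member had a Slc2a1 UMI, as did 79.5% of the other basal cells. Hilpda, which encodes a lipid droplet protein, stood at 695, 738, 633 and 1027 CPM against 324, 344, 256 and 433 CPM (log2 1.31, SE 0.12). For Ddit4, which encodes an inhibitor of mTOR signalling, the values were 3352, 3346, 2470 and 3111 CPM against 1427, 1319, 1235 and 1516 CPM (log2 1.27, SE 0.11). In none of these 3 genes did members and others overlap. Vegfa, the main growth factor of blood vessels, averaged 705 ± 136 CPM in members and 373 ± 98.5 CPM in the others (SD, n = 4). Car9 and Egln3, which is a hydroxylase that marks the hypoxia-inducible factors for decay, differed less, by log2 0.66 and 0.46. Stc2, P4ha2, Car12, Ankrd37 and Kdm3a were not called, at log2 values from −0.29 to 0.57.

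Of 13 glycolysis genes that could be assigned, 12 were higher, 0 were lower and 1 (Hk1) was not called, with a median of 0.87. Pgam1, phosphoglycerate mutase, stood at 2792, 1875, 2199 and 1790 CPM in members and at 1343, 939, 958 and 874 CPM in the others (log2 1.19, SE 0.11, adjusted p = 5.15e-24). Ldha, which turns pyruvate into lactate, stood at 3382, 2992, 2861 and 2980 CPM against 1810, 1564, 1499 and 1618 CPM (log2 1.03, SE 0.11). Gapdh and Eno1 differed by log2 1.00 and 1.01. Aldoa was left out because its symbol is not unique in the files. When the cells were chosen without Adm, 6 of 22 hypoxia genes and 7 of 13 glycolysis genes were still called higher and 0 lower, with medians of 0.40 and 0.54 beside −0.14 over all genes. In that choice of cells, edgeR without the library block called 0 of 9029 genes, although 1113 had an unadjusted p under 0.05, and DESeq2 called 218.

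All 10 interferon response genes were lower in members, and lower in each of the 4 libraries, with a median log2 difference of −4.12. Ifit1, an interferon-induced RNA-binding protein, averaged 7.95 ± 3.34 CPM in members and 183 ± 170 CPM in the others (SD, n = 4), and the members' value rests on 8 UMIs. Isg15, a ubiquitin-like protein, had 29 UMIs in members and differed by −2.59 (SE 0.24, adjusted p = 4.71e-25). The 10 largest decreases by the rule for named genes were Irgm1, Ifit3, Ifi47, Rsad2, Ifit3b, Iigp1, Usp18, Cxcl10, Gm21149 and Irf7, each with 0 to 2 UMIs in members. Irgm1 had 0 UMIs in members and 29.5 CPM over all other basal cells, which is at least 11.4-fold higher when 3 counts are taken as the floor over all members. Ifit3 had 1 UMI in members, and its summed level in the other basal cells was 84.4 times as high with an exact 95% interval from 15.1 to 3334. Ifit3 and Ifit3b are close copies of each other and their reads may have been split. None of the 352 members was among the top 5% of basal cells by the interferon list, which allows a share of up to 0.852%. Of the other basal cells 5.27% were, or 6.17%, 10.8%, 1.95% and 1.72% by library. The library with the lowest of these shares, 4OHT replicate 2, gave 199 of the 352 members. When the top 5% by the interferon list was left out, 7 of the 9 interferon genes still tested were called lower and 0 higher.

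**Figure D2:**
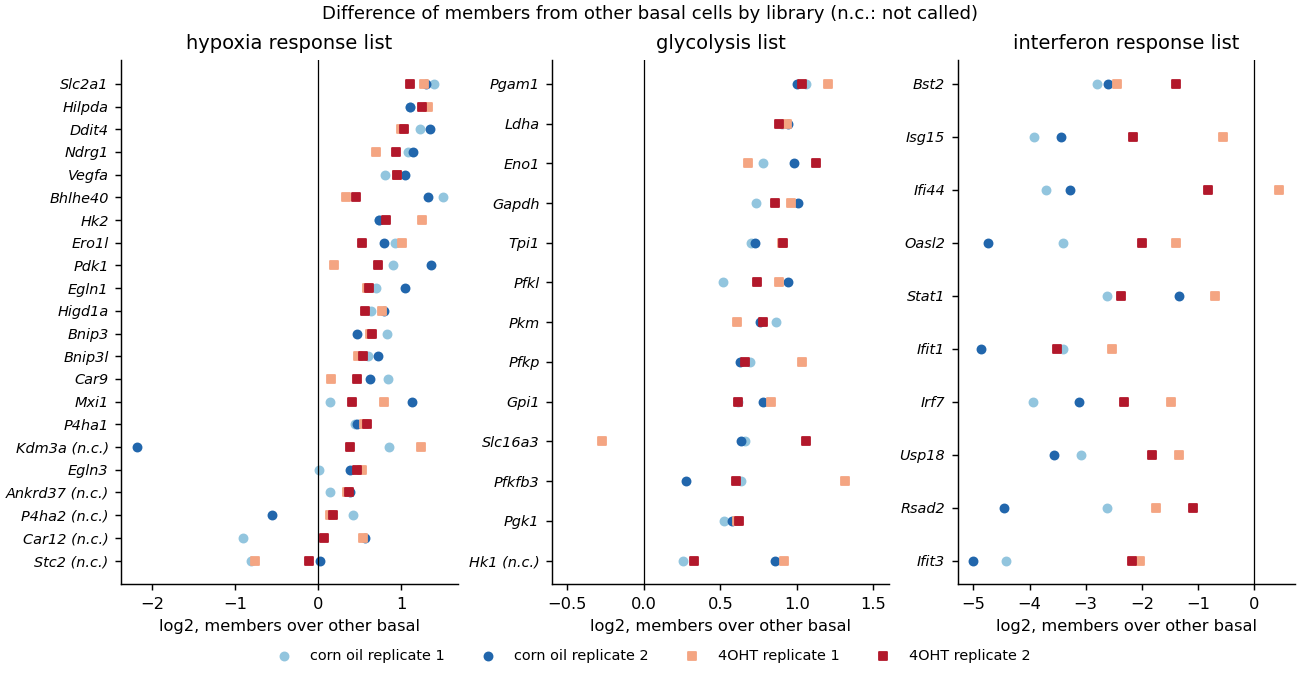
Each point is the log2 ratio of members to other basal cells for 1 gene in 1 library (1 count was added to each sum), with genes of the hypoxia, glycolysis and interferon lists in rows, circles for corn oil and squares for 4OHT, and n.c. marking genes not called by the test over 4 libraries. The called hypoxia and glycolysis genes lie right of 0 with the exception of Slc16a3 in 4OHT replicate 1, and the interferon genes lie left of 0 except Ifi44 in 4OHT replicate 1. The added count moved the points of Ifi44 and Pdk1 in 4OHT replicate 1 across 0, since by CPM both were lower in members there.

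Tfap2c, the floxed gene, was among the 15 largest increases. It stood at 949, 664, 648 and 578 CPM in members and at 369, 273, 276 and 302 CPM in the other basal cells (log2 1.32, SE 0.12, adjusted p = 2.38e-23). Each library of members lay above each library of the others. After thinning cells to 2000 UMIs, a Tfap2c UMI was found in 88.2%, 67.9%, 68.8% and 57.2% of members and in 43.6%, 33.4%, 32.2% and 38% of the other basal cells. Before thinning the shares were 98.1%, 73.1%, 81.8% and 66.8% of members and 67.6%, 43.6%, 48.3% and 46% of the others. Endothelial cells, which serve as the background of free RNA, had such a UMI in 0% to 2.44% at median depths from 1820 to 2861.5 UMIs. The labels do not name the floxed exon, and a 3′ count can come from a transcript that lost an internal exon, so these levels do not check the deletion.

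**Figure D3:**
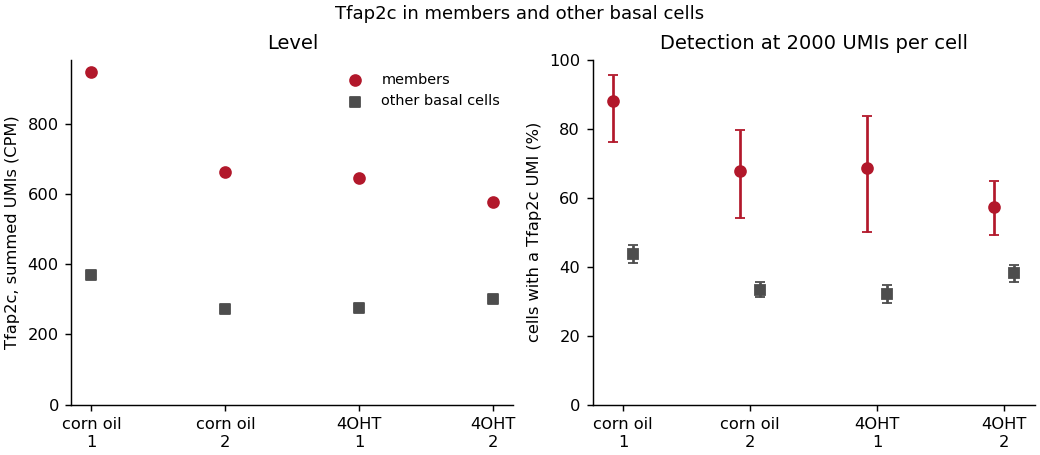
Tfap2c in members (circles) and other basal cells (squares) of the 4 libraries, as CPM on the left and on the right as the percentage of cells with at least 1 UMI after thinning every cell to 2000 UMIs, with exact 95% binomial intervals. Members were higher in each library by either measure, and the lowest share among members was 57.2%.

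The other large increases included secreted proteins and genes of cell adhesion. Pthlh, which encodes the parathyroid hormone-related protein, stood at 374, 197, 306 and 316 CPM in members and at 98.5, 83.7, 147 and 135 CPM in the others (log2 1.51, SE 0.15). Pgf, placental growth factor, averaged 301 ± 109 CPM against 119 ± 32.4 CPM, and Itga5, a subunit of the fibronectin receptor, 119.6 ± 60.7 CPM against 40.8 ± 1.92 CPM (SD, n = 4). None of these 3 genes overlapped between members and others, as was so for 168 of the 481 genes called higher. Ier3, a gene induced early by growth factors and stress, stood at 3698 ± 546 CPM against 1435 ± 179 CPM (log2 1.48, SE 0.11, adjusted p = 1.37e-38). The remaining names on the list were Adam19, Ankrd9, Ccng2, Lgi1, Elf3, Iffo2, Ptpn14 and Lipe, with log2 differences from 1.40 to 1.79. Adam19 and Lipe rest on 22 and 35 UMIs in members, and their libraries overlapped.

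Many genes of the markers' own pathways had too few counts to be tested. Of 8 tested genes among 21 vasoactive peptides and receptors, 1 was higher and 0 were lower. That was Adm2, a relative of adrenomedullin, at 67.3, 78.7, 49.8 and 27.3 CPM against 28.8, 25.6, 29.3 and 27 CPM (log2 1.03, SE 0.27, adjusted p = 0.00282). Its excess was absent in 4OHT replicate 2. Ramp3, part of the adrenomedullin receptor, was not called (log2 0.75, SE 0.32, adjusted p = 0.104). None of 5 tested neurotrophin genes was called in either direction, and for Bdnf the difference was −0.50 (SE 0.20, adjusted p = 0.0741). Ntrk3, the NT-3 receptor, had 3 UMIs in members and differed by −1.68 (SE 0.82, adjusted p = 0.189). In the self-test for this comparison, 200 genes of at least 20 CPM were changed by log2 1 in simulated counts. Of these 200, 131 were called (65.5%), among 9265 genes tested. Genes of lower level were not changed, so the self-test does not cover Ntrk3, at 8.89 CPM over all other basal cells. Its simulated library effects were the same in members and others of a library.

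Contractile genes went both ways. Of 15 tested, 4 were higher (Oxtr, Actn1, Lmod1 and Smtn), 5 were lower (Myl9, Myh11, Tpm1, Tpm2 and Mylk) and 6 were not called. These counts changed with the processing. DESeq2 called 3 higher and 1 lower, RLE scaling 4 and 3, the top 10% of cells 7 and 2, and the fit without the library block 2 and 0. Without corn oil replicate 1 the counts were 3 and 2, without corn oil replicate 2 they were 4 and 1, and without 4OHT replicate 2 they were 3 and 3. Oxtr, the oxytocin receptor, stood at 594, 246, 406 and 159.9 CPM in members and at 147, 133, 141 and 133 CPM in the others (log2 1.32, SE 0.15, adjusted p = 2.24e-17). All libraries of members lay above all libraries of the others, with the largest excess in replicate 1 of either group. Among basal cells without Krt8, Krt18 or Krt19 UMIs, where the top 5% is only 33 cells, the difference had the opposite sign for Oxtr (−0.31) and for Lmod1 (−0.16). Myl9, a myosin light chain, averaged 191 ± 53.1 CPM in members and 404 ± 128 CPM in the others (SD, n = 4). The decreases of Myh11, Mylk, Tpm1 and Tpm2 were small, from −0.39 to −0.44. Among 16 basal identity genes, 4 were higher and 2 lower. Il17b and Sparc were the lower pair, at −0.93 and −0.74, and Egfr led the higher ones at 0.92. In the matrix list 3 of 15 were higher (Tnc, Lamc1 and Postn) and 2 lower (Thbs1 and Timp3).

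Signalling lists gave smaller counts. Of 10 YAP targets, 4 were higher (Ptpn14, Tead1, Ctgf and Crim1) and 0 lower. The ATF4 and unfolded protein list had 5 of 12 higher and 0 lower, among them Dnajb9, an ER co-chaperone, at 1762 ± 499.9 CPM in members against 916 ± 264 CPM (SD, n = 4). Immediate early genes went both ways, with 5 of 21 higher and 7 lower. Ier3 and Jun were higher by 1.48 and 0.59, while Egr1, Fos and Egr2 were lower by log2 values of −1.94, −1.56 and −1.55. In the glucocorticoid list 3 of 11 were higher (Per1, Errfi1 and Dusp1) and 4 lower. The lower ones included Cebpd, a transcription factor of acute responses, at 209 ± 98.7 CPM against 592 ± 135 CPM, and the metallothionein Mt1, at log2 −1.11. The NF-κB list had 1 of 11 higher (Nfkbia) and 2 lower (Ccl2 and Cxcl1). Among the EGF receptor ligands 0 of 3 were higher and 1 was lower, Hbegf, with 2 UMIs in members. For the Wnt list 0 of 10 were higher and 1 was lower (Sfrp1). For the proposed stem cell markers 0 of 9 were higher and 2 were lower (Lgr6 and Cd24a), and 0 of 2 cell cycle genes were called. Lgr6 had 0 UMIs in members and was at least 2.1-fold lower by the same floor.

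Levels of a few genes were followed along the score. In the basal cells of the lowest 50% of the score, Slc2a1 averaged 1182 CPM over libraries. It stood at 3070 CPM from 50 to 75%, at 4020 CPM from 75 to 90%, at 4471 CPM from 90 to 95%, at 5296 CPM from 95 to 99% and at 6527 CPM in the top 1%. For Tfap2c the same bands gave 190, 385, 485, 538, 673 and 849 CPM. Slc2a1 and Tfap2c were higher in each higher band. Ifit1 gave 289, 70.6, 29.5, 50.9, 9.59 and 0 CPM, and so was higher from 90 to 95% than from 75 to 90%. Most of the difference in Slc2a1 and Ifit1 thus lay among cells far below the members. The bands follow the score that chose the members, and the genes shown were picked after their values were seen. Set against only the 1405 other basal cells in the bands from 75 to 95%, a comparison added after the data were seen, 80 of 4985 genes were called, 62 of them higher and 18 lower. Of these 80, 78 were among the 1082, 77 of them with the same sign. The exception was Chil1, higher here (log2 0.73) and lower against all other basal cells (−0.38). Hypoxia genes numbered 7 of 22 higher, glycolysis genes 5 of 13 higher, and the 2 interferon genes still tested were not called. Tfap2c was higher by 0.54 (SE 0.097, adjusted p = 5.22e-04) and Oxtr by 0.99 (SE 0.14, adjusted p = 1.36e-05). In that comparison Hspa1a, a heat shock protein, was lower by log2 −1.03 and Ddit3 by −0.60. Of 12 genes of the ATF4 and unfolded protein list, 1 was called higher there and 1 lower, with a median of −0.16. Against all other basal cells Hspa1a was lower by −2.36, and Ddit3 was not called (−0.23).

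**Figure D4:**
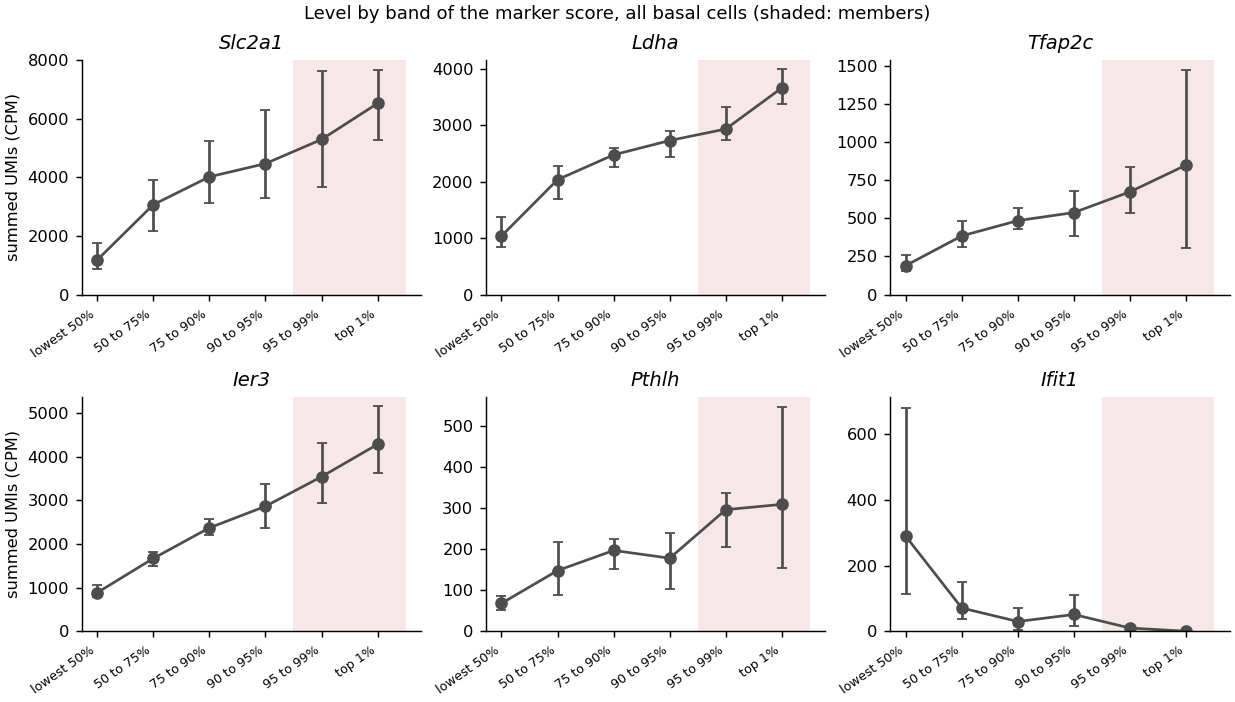
Mean CPM of 6 genes over the 4 libraries in basal cells split into 6 bands of the marker score, with bars from the lowest to the highest library and the 2 bands of members shaded. Slc2a1, Ldha, Tfap2c and Ier3 are higher in each higher band, and Ifit1 is lowest in the members.

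Members also lay near each other in genes that the rule did not use. Among the 15 nearest basal cells of a member in the same library, by 30 principal components without the rule genes, 14.4% ± 6.02 were members, against 3.81% ± 3 of the neighbours of other basal cells (SD, n = 4). The share among neighbours of members was 2.36 to 4.65 times the share of members among all basal cells of the same library. Most neighbours of a member were still not members.

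The share of basal cells that were members differed between the 4OHT libraries more than between the groups. Members were 53 of 1496, 67 of 1933, 33 of 1421 and 199 of 2178 basal cells, or 3.54%, 3.47%, 2.32% and 9.14%. The exact 95% binomial intervals were 2.66 to 4.61%, 2.7 to 4.38%, 1.6 to 3.25% and 7.96 to 10.4%, and they cover counting error only. Corn oil averaged 3.5% ± 0.054 and 4OHT 5.73% ± 4.82 (SD, n = 2). An exact two-sided permutation test over libraries gave p = 1, and its smallest possible p with 2 libraries against 2 is 0.33. Without 4OHT replicate 2 the 4OHT share lay below that of corn oil by 1.18 percentage points. The other basal cells of 4OHT replicate 2, with members left out, held the most Adm and Edn2 of the 4 libraries, by the values given above. These 2 genes are part of the score, so this describes the score's distribution and supports nothing else. Its basal cells also had the lowest median depth, 2827.5 UMIs. After thinning to 2000 UMIs the shares were 4.24%, 4.57%, 3.51% and 10.5%.

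**Figure D5:**
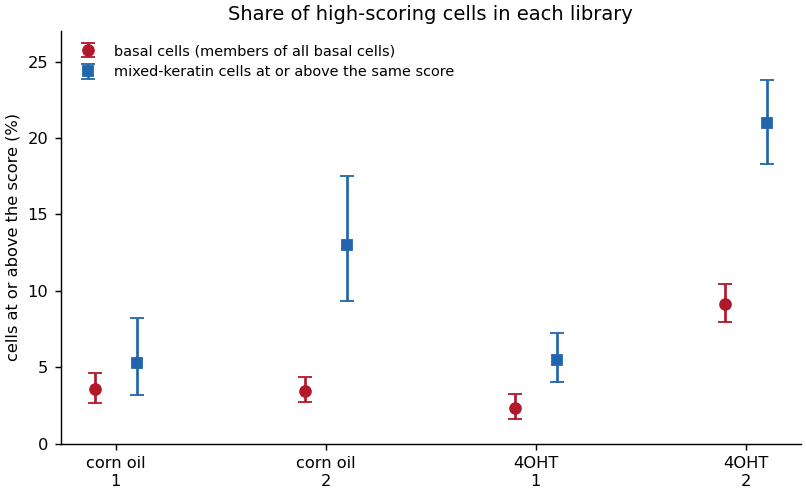
Percentage of cells at or above the score limit in each library, with exact 95% binomial intervals, for basal cells (circles) and for cells with UMIs of both keratin groups that met neither the basal nor the luminal rule (squares). The 4OHT replicate 2 library is highest for either kind of cell, at 9.14% and 21%.

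Inside the members, no gene was called between 4OHT and corn oil. Of 2455 genes tested by edgeR, 0 passed (0%), 55 had an unadjusted p under 0.05, and DESeq2 also called 0 with 18 under 0.05. Leaving out corn oil replicate 1, corn oil replicate 2 or 4OHT replicate 1 gave 7, 10 and 5 calls. In the self-test of this comparison, 200 genes of at least 20 CPM were changed. With log2 changes of 1, 147 of them were among the 2470 genes tested and 7 were called (3.5% of the 200). With log2 changes of 2, 150 were among the 2388 genes tested and 121 were called (60.5% of the 200). Tfap2c differed by −0.41 (SE 0.33, adjusted p = 0.999), from 807 ± 201 CPM in corn oil to 613 ± 49.4 CPM in 4OHT (SD, n = 2). The 3 genes with the smallest p did not pass. They were Krt15, a basal keratin, at 243, 389, 14.2 and 59.97 CPM, Ghrh at 85.9, 44.3, 0 and 0 CPM, and the chemokine Cxcl1 at 14.9, 19.7, 114 and 85.4 CPM, each with adjusted p = 0.999. In members the Ghrh UMIs came from 3 cells and 49.3% of the Cxcl1 UMIs from 1 cell. Of the 179 Krt15 UMIs, 54 came from 1 cell of corn oil replicate 1. Of the markers, Edn2 averaged 501 ± 285 CPM in corn oil and 1083 ± 223 CPM in 4OHT (log2 1.12, SE 0.42, adjusted p = 0.999), a level bounded by the choice of cells. Whether the 4OHT difference itself differed between members and other basal cells was tested as an interaction, which called 6 of 9996 genes (0.06%).

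Other cell types were looked for with marker lists. Members had 0 UMIs of the 7 pericyte markers and 7 UMIs of the 10 leukocyte markers. Summed fibroblast markers ran from 32.7 to 123 CPM in members and from 88.9 to 206 CPM in the other basal cells, and endothelial markers from 11.2 to 123 CPM against 11.4 to 64.8 CPM, with 6 to 9 of the 10 endothelial genes at 0 in a library. Dcn and Gsn, the 2 fibroblast genes tested, were lower in members, while the 1 endothelial, 2 leukocyte and 2 Schwann cell genes tested were not called. Fabp4, an adipocyte marker, was called higher, but 70.4% of its 54 UMIs came from 1 cell of corn oil replicate 2, without which library the sign turned (log2 −1.07). Luminal markers outside the rule summed to between 1988 and 3333 CPM in members and 2248 and 3465 CPM in the others, with 3 of 10 higher (Cited1, Krt7 and Epcam) and 0 lower. Of the rule's own genes, Krt8 stood at 1013, 1329, 1274 and 1230 CPM in members and 486, 631, 613 and 775 CPM in the others, and Krt17 at 5934, 7736, 5082 and 6558 CPM against 3128, 4031, 2787 and 4224 CPM, without overlap. Krt18 was also higher without overlap, at 1297, 945, 1644 and 1196 CPM against 559, 549, 833 and 766 CPM. Krt5, Krt14, Krt19 and Acta2 overlapped between members and others. Of 5 keratins outside the rule, 3 were called higher (Krt7, Krt23 and Krt15) and 0 lower. Krt15 was found in 9.66% of members and 11.2% of the other basal cells. In members 30.2% of its UMIs came from 1 cell of corn oil replicate 1, and for the top 2% its sign turned (log2 −0.74). The part that luminal transcripts play in the differences was not tested. Among basal cells without any Krt8, Krt18 or Krt19 UMI only 33 of 660 cells made up the top 5%. There 43 of 1391 genes were called, with 4 of 16 hypoxia genes and 4 of 10 glycolysis genes higher, 0 lower, and medians of 0.87 and 1.00.

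High scores were rare in other classes and frequent in cells with mixed keratins. Among 6797 luminal cells 18 reached the score limit (0.265%), among 284 endothelial cells 4, and among 116 fibroblasts and 49 leukocytes 0. Adm was nonetheless measured in endothelial cells, at 945 to 2453 CPM, while Edn2 there gave 2 UMIs in all. The basal rule leaves out cells with at least 5 UMIs of each keratin group in like amounts. In this class 18 of 342, 37 of 284, 46 of 837 and 183 of 873 cells reached the limit, or 5.26%, 13%, 5.5% and 21%. Over all libraries that is 284 cells beside the 352 members. Summed over libraries they had 10657 CPM of Adm, 1612 CPM of Edn2, 5676 CPM of Slc2a1 and 929 CPM of Tfap2c. The same class below the limit had 1736, 87.9, 2903 and 485 CPM. Adm and Edn2 are part of the score, so their difference follows from the split. The 4OHT replicate 2 library gave 183 of the 284 cells and 690 of the 2052 cells below. By library, Slc2a1 stood at 7117, 7375, 5237 and 5252 CPM above the limit and at 2767, 3248, 2810 and 3036 CPM below. Tfap2c stood at 1491, 962, 865 and 847 CPM above and at 498, 438, 468 and 523 CPM below. Scrublet, a doublet caller, ranked 7 of these 284 cells among the likely doublets, but its automatic threshold had failed, and the part of doublets was not tested.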

How the data were processed

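Single-cell RNA-seq was deposited for 4 libraries, 2 per group. The raw UMI counts per gene and cell were deposited by the authors, made with Cell Ranger 3.0.1 on mm10, per the file headers and the submitters' processing notes. The strand setting and cell calling are not given in the sources used here. Members and gene lists were chosen with earlier results of these data known.

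UMIs were summed per library for members and for the other basal cells. Differences were fitted on these sums by the quasi-likelihood test of edgeR 4.0.16 in R 4.3.3 (TMM, filterByExpr, Benjamini-Hochberg adjustment over all tested genes, threshold 0.05), with library as a block for members against others and with treatment alone within members. All adjusted p-values are from edgeR unless DESeq2 (1.42.0) is named. The 11 rule genes were left out of the tests of members against others. Cells of both sets come from the same mice. The p-values start from the spread between these 4 libraries, but edgeR estimates that spread partly from all genes together. A small SE can therefore stand beside libraries that disagree, as for the left-out Edn2. The scripts were tested on simulated data. Depth was 17351950 to 22017878 UMIs per library, and exact binomial intervals cover counting error only. Doublets were kept: the automatic Scrublet threshold marked at most 0.195% of cells of a library, so its highest scores were removed only in an alternative.

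Named genes were the 15 highest and 10 lowest called differences with the same sign in all 4 libraries and at least 20 CPM in either set, the 3 smallest p-values or the called genes of the other comparisons, the 4 markers, Tfap2c and up to 4 genes of each list. A named gene and a list that holds it are not reported here. Other genes named are the called members of a list or were chosen after their values were seen. Alternatives changed the top percentage, the depth, the filters, the tool, the scaling, the block and the libraries.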

Additional observations from a re-analysis of the deposited data

Results flagged for a closer look

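The 4OHT difference itself differed between members and other basal cells for 6 genes by the edgeR interaction test, and the direction is members minus others. The log2 values were −4.46 for Fabp4, −3.95 for Ccl5, −3.68 for Ankrd1, 1.49 for Ly6e, 1.66 for Chil1 and 3.38 for Cx3cr1. Of the members' Fabp4 UMIs, 70.4% came from 1 cell of corn oil replicate 2. For Ankrd1 56.9% of 51 UMIs, and for Ccl5 51.7% of 29 UMIs, came from 1 cell of corn oil replicate 1. Ly6e, an interferon-inducible surface protein, stood at 198, 285, 391 and 492 CPM in members and at 1024, 1317, 670 and 845 CPM in the other basal cells, in the library order of the report. Members were lower than the others in each library. Cx3cr1, a chemokine receptor, had 39 UMIs in members, with 0, 14.8, 42.7 and 54.5 CPM. DESeq2 called 1 gene in this comparison.

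Cells outside the basal class passed the score limit in the 4OHT libraries. Luminal cells above the limit made up 0.299% and 0.425% in replicates 1 and 2 of 4OHT, beside 0.278% and 0% in the corn oil libraries. The exact 95% intervals of either 4OHT library overlap those of both corn oil libraries. Among cells with mixed keratins the share was 5.5% and 21%, beside 5.26% and 13% in corn oil. The intervals ran from 4.05 to 7.26% and from 18.3 to 23.8% in 4OHT, and from 3.15 to 8.19% and from 9.34 to 17.5% in corn oil. The difference between the groups was not tested for either class. No group had enough samples for a test of outlying libraries.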

How the results depend on the processing

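The 4OHT minus corn oil share ran from −1.18 to 5.63 percentage points when 1 library was left out. The 1082 genes called between members and other basal cells became 606 to 982 without 1 library, 399 for the top 2%, 629 after thinning, 43 without Krt8, Krt18 or Krt19 UMIs, 581 with DESeq2, 80 against the basal cells from 75 to 95% of the score and 162 with no replicate block. Of the calls, 44.5% were higher in members, against 29.3% for the top 2%, 56.2% for the top 10% and 34.7% with no filter on low counts. DESeq2 gave 59.6%. For 4OHT inside members, the 0 calls became 0 to 10 without 1 library, 8 with no filter and 33 with the replicate block. The labels do not say that replicate numbers pair mice. The replicate 1 minus 2 differences of the groups had a correlation of 0.507 across 2455 genes, which are not independent. The 6 interaction calls became 2 to 21 without 1 library, 3 for the top 2%, 37 for the top 10%, 46 for the top 5% within each library, 0 after thinning or without luminal keratin UMIs, 11 at 2000 to 6000 UMIs, 1 with DESeq2 and 23 with RLE factors. Left-out markers no longer passed as follows. With no replicate block the differences were 2.34 for Edn2, 1.02 for Adm, 0.74 for Crispld2 and 1.28 for Ntf3. Without luminal keratin UMIs they were 1.502 for Edn2, 1.05 for Crispld2 and 0.23 for Ntf3. For the top 2% they were 0.69 for Crispld2 and 0.94 for Ntf3. Ntf3 gave 0.73 after thinning and Edn2 2.11 with DESeq2. Without 1 library Ntf3 ran from 0.94 to 1.64, and the call was lost only without corn oil replicate 2 (0.94). Signs turned without luminal keratin UMIs for Oxtr (−0.31), Lmod1 (−0.16), Atf4 (−0.16), Nfkbia (−0.15) and the Tfap2c interaction (0.017). They turned for the top 2% in Krt15 (−0.74), Fabp4 (−0.16) and the Fabp4 interaction (7.98), and for Car9 against the 75 to 95% bands (−0.027). The 4OHT difference of Adm was 0.077 in the top 5% within each library. Without 1 library, Fabp4 ran from −1.07 to 2.91, the 4OHT difference of Ntf3 from −2.36 to 0.72, the Fabp4 interaction from −4.72 to 4.66 and the Ankrd1 interaction from −4.70 to 7.08. The cause of these changes was not tested. Of 1663 pairs of a named gene and an alternative, 1342 kept their direction and side of the threshold. Depth limits the values that rest on few UMIs in members.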
